A study of Mus musculus with 18 samples.

Results

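The 32 genes described here encode the machinery of the chemical synapse: 23 presynaptic and adhesion proteins of vesicle release, 7 scaffold and kinase proteins of the postsynaptic density, and 2 secreted neuronal pentraxins, with neurotransmitter receptors left out. They were taken by gene symbol from a list, all 32 were found among the 18922 genes of the count table, and all 32 passed the filter on low counts, so that none is missing from any test. They were measured by sequencing of polyadenylated RNA in 18 libraries of mouse brain tissue. The mice had a photothrombotic stroke, in which an injected light-sensitive dye, Rose Bengal, and a laser aimed at the cortex make vessels clot. The 6 groups of 3 libraries were infarct core of Trem2 knockout (KO) mice, infarct core of Trem2 wild-type (WT) mice, peri-infarct tissue of KO mice, peri-infarct tissue of WT mice, contralateral tissue of KO mice and contralateral tissue of WT mice. All mice were males of 8 to 10 weeks on a C57Bl6 background and had the same lesion, with the dye given at 50 mg/kg and light of 525 nm and 125 mW kept to a cortical circle 3 mm wide. The labels give neither the Trem2 allele nor the number of mice per library. Tissue was taken 7 days later, with TTC staining to tell infarcted from living tissue. The contralateral tissue therefore comes from lesioned mice, and no tissue of uninjured mice is used here. Trem2 encodes a surface receptor that brain macrophages, and not neurons, use to sense lipids and debris, and the design asks how its loss changes each region after stroke. The labels do not say whether the libraries of a group came from separate mice, so the p-values reflect the spread of these libraries alone, and that spread may be technical.

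At a synapse, transmitter-filled vesicles are docked at the active zone by large scaffold proteins and primed by Munc13 and RIM proteins. A vesicle SNARE protein and the SNARE proteins of the plasma membrane then zip together, and calcium binding to a synaptotagmin triggers fusion, with complexin holding the complex ready. Neurexins and neuroligins bind each other across the cleft, and on the receiving side PSD-95, SAPAP, Shank and Homer proteins stack into the scaffold that holds glutamate receptors beside the kinase CaMKII. In the cortex these transcripts are made mainly by neurons, and many of their proteins are used as markers of synapse number.

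One library has to be described before any result. The WT infarct core library of replicate 3 held 16216 detected genes, against 16720 to 17109 in the other 17 libraries, and 15.5% of its counts fell on its top 10 genes, against 3.27% to 5.38%. Its total count was 18713770, against 16993978 to 17691801 elsewhere. In it the 32 genes together took 0.0182% of counts, and each stood at 0.0874% (Sv2b) to 25.3% (Homer1) of the lowest of the other 5 core libraries. Its neuronal markers were also low, with 1.88 CPM (counts scaled to a common library size) of the neuronal nuclear protein gene Rbfox3 and 0.907 CPM of the vesicular glutamate transporter gene Slc17a7, while the microglial gene C1qa stood at 3513 CPM. Counts of called genes are given with and without it below, and without it the WT infarct core has n = 2. As a check of the labels, Trem2 had 5.59, 8.24 and 5.23 CPM in KO core, 2.47, 3.19 and 3.93 CPM in KO peri-infarct and 0.69, 0.902 and 0.337 CPM in KO contralateral libraries. It had 184, 215 and 919.8 CPM in WT core, 130.2, 91.4 and 125 CPM in WT peri-infarct and 27.9, 20.5 and 28 CPM in WT contralateral libraries. All 9 KO libraries lay below all 9 WT libraries.

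In contralateral tissue the 32 genes spanned more than 2 orders of magnitude in TPM, a unit scaled to transcript length, so that genes can be compared. Snap25, the plasma membrane SNARE protein of vesicle fusion, led with 3099 ± 149 TPM in KO and 3528 ± 423 TPM in WT contralateral tissue (SD, n = 3 each). Camk2a, the kinase subunit that is the most abundant postsynaptic signalling protein of forebrain neurons, followed with 1484 ± 136 TPM in KO and 1479 ± 233 TPM in WT contralateral tissue (SD, n = 3 each). Syp, synaptophysin, the classical vesicle membrane protein, came next with 1283 ± 42.5 TPM in KO and 1361 ± 37.8 TPM in WT contralateral tissue (SD, n = 3 each), ahead of the vesicle SNARE gene Vamp2. Camk2a and Syp did not differ beyond the spread between libraries in WT tissue, while Snap25 stood clear of both. In WT tissue the order then ran through Syt1, Rab3a, Cplx1, Cplx2, Dlg4, Syn1, Syn2, Stx1a, Sv2a, Sv2b, Dlgap1 and Nptx1. It went on through Vamp1, Syt4, Homer1, Rims1, Syt7, Unc13a, Shank1, Bsn, Nrxn3, Shank2, Shank3, Pclo, Nptx2 and Syt2. The lowest 2 were Nlgn1 with 11.1 ± 0.366 TPM in KO and 12.3 ± 1.21 TPM in WT contralateral tissue (SD, n = 3 each) and Syn3 with 11.4 ± 1.14 TPM in KO and 11.8 ± 1.81 TPM in WT contralateral tissue (SD, n = 3 each). Syt1 and Rab3a, as well as Nlgn1 and Syn3, were among the neighbours whose spreads overlapped in WT tissue. Within families, Vamp2 stood above Vamp1, Syt1 above Syt2 and Syn1 above Syn3.

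The infarct core held less of these transcripts than contralateral tissue. The 32 genes together took 1.07%, 0.999% and 1.01% of all counts in KO core libraries and 1.45%, 1.35% and 0.0182% in WT core libraries, against 1.81% to 2.09% in the 6 contralateral libraries. All 32 had a negative log2 fold change, with a median of -0.99 over the 32 and of -0.02 over all genes tested. With all 18 libraries the edgeR quasi-likelihood test called 4 of 32 lower and 0 higher at an adjusted p under 0.05, where 20.8% of all genes tested were called lower, and 11 of 32 had an unadjusted p under 0.05. The 4 were Syt2, Vamp1, Nrxn3 and Homer1, and the other 28 lay between -1.32 ± 0.61 (Rims1) and -0.57 ± 0.62 (Nptx1). Without WT core replicate 3 the test called 31 of 32 lower, all but Nptx1, with a median of -0.71, where 31.3% of all genes were called lower. In 20 of 32 genes every core library lay below every contralateral library, both with and without that library, against 15.7% of all genes with it and 15.9% without it. For the 32 this count could not fall by adding that library, which was the lowest core library in each of them. In bulk tissue, fewer neurons and less RNA per neuron cannot be told apart.

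**Figure D1:**
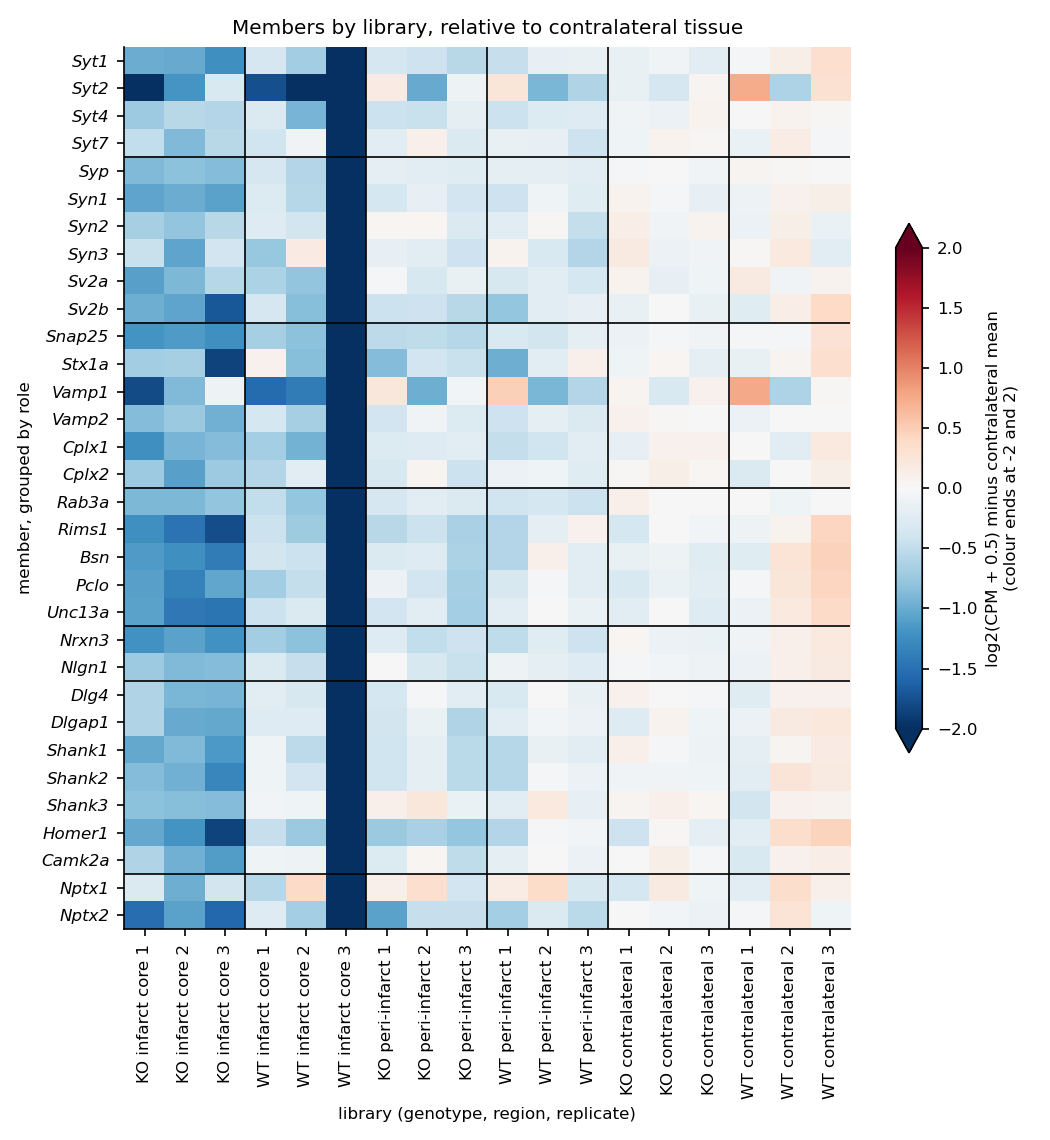
Each cell shows a gene's log2(CPM + 0.5) in 1 library minus its mean over the 6 contralateral libraries, with the 32 genes in rows grouped by role and the 18 libraries in columns (core, then peri-infarct, then contralateral, KO before WT). The KO core columns are blue in nearly every row, WT core replicates 1 and 2 are mostly paler, and WT core replicate 3 lies beyond the colour scale throughout, with the members at 0.0182% of its counts.

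Among the SNARE proteins and complexins, all 6 had negative core values. Snap25 had 1221, 1275 and 1189.6 CPM in KO core and 1753, 1575 and 2.14 CPM in WT core, against 2568, 2719 and 2649 CPM in KO contralateral and 2743, 2724 and 3423 CPM in WT contralateral libraries. Every core library lay below every contralateral library, and the log2 fold change was -1.26 ± 0.75 with all libraries (adjusted p = 0.16) and -0.98 ± 0.068 without WT core replicate 3 (adjusted p = 1e-08). Vamp2, the main vesicle SNARE of the forebrain, had 513, 557 and 480.3 CPM in KO core and 728, 589 and 29 CPM in WT core, against 986, 944 and 940.1 CPM in KO contralateral and 863, 940.0 and 930.0 CPM in WT contralateral libraries. The groups did not overlap, and Vamp2 changed by -0.68 ± 0.075 on the log2 scale without that library. Cplx1, a complexin that holds the assembled SNARE complex before the calcium signal, had 265, 327 and 342 CPM in KO core and 388, 323 and 1.81 CPM in WT core, against 556, 661 and 658 CPM in KO contralateral and 626, 536 and 716 CPM in WT contralateral libraries. Its paralogue Cplx2 had 780.3, 608 and 782 CPM in KO core and 866, 1112 and 13.4 CPM in WT core, against 1319, 1404 and 1333 CPM in KO contralateral and 1055, 1294 and 1401 CPM in WT contralateral libraries. Cplx1 was lower in every core library, whereas WT core replicate 2 of Cplx2 lay above the lowest contralateral library. The log2 fold changes without WT core replicate 3 were -0.92 ± 0.093 for Cplx1 and -0.63 ± 0.10 for Cplx2. Stx1a, the syntaxin of the plasma membrane, had 148, 152 and 66.1 CPM in KO core and 255, 132 and 3.89 CPM in WT core, against 227, 247 and 212 CPM in KO contralateral and 216, 249.5 and 303 CPM in WT contralateral libraries. KO core replicate 3 was the lowest of the other core libraries and WT core replicate 1 lay within the contralateral range, and the change without WT core replicate 3 was -0.66 ± 0.25 (adjusted p = 0.034).

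All 4 synaptotagmins, of a family that includes the calcium sensors of release, were called lower in the core without WT core replicate 3. Syt1, the sensor of fast release in most forebrain neurons, had 764, 759.7 and 650.3 CPM in KO core and 1204, 947 and 1.17 CPM in WT core, against 1380.1, 1459.9 and 1325 CPM in KO contralateral and 1492, 1654 and 1926 CPM in WT contralateral libraries. Syt4, a family member found on dense-core and other vesicles, had 142, 161 and 157 CPM in KO core and 192, 124 and 16.8 CPM in WT core, against 224, 217 and 249 CPM in KO contralateral and 237, 248 and 239.9 CPM in WT contralateral libraries. Neither gene overlapped between core and contralateral tissue, and their changes without WT core replicate 3 were -0.80 ± 0.092 for Syt1 and -0.61 ± 0.10 for Syt4. Syt7, the slower sensor of asynchronous release, had 168 to 294 CPM in the other 5 core libraries, against 281 to 344 CPM in contralateral libraries, so that its groups overlapped, and its change was -0.44 ± 0.10 (adjusted p = 0.00089). Syt2, the fast sensor of brainstem synapses and of some fast-spiking interneurons, is described with Vamp1 below.

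Of the 6 vesicle proteins, all had negative core values and all passed the test without WT core replicate 3. Syp had 726, 758 and 734 CPM in KO core and 1059, 890.3 and 7.13 CPM in WT core, against 1322, 1335 and 1282 CPM in KO contralateral and 1394, 1362 and 1347 CPM in WT contralateral libraries. It was the least variable of the 32 among contralateral libraries, with a coefficient of variation of 2.81%, and its log2 fold change was -0.67 ± 0.051 without WT core replicate 3 and -0.95 ± 0.62 with it (adjusted p = 0.19). Sv2a, a transporter-like vesicle protein and the binding site of levetiracetam, had 193, 219 and 273 CPM in KO core and 262, 236 and 11.3 CPM in WT core, against 429, 364 and 383 CPM in KO contralateral and 461, 388 and 429 CPM in WT contralateral libraries. Its paralogue Sv2b had 245, 231 and 148 CPM in KO core and 381, 268 and 0.13 CPM in WT core, against 432, 484 and 436 CPM in KO contralateral and 407, 526 and 633 CPM in WT contralateral libraries. Both were lower in every core library, with changes of -0.78 ± 0.088 for Sv2a and -0.91 ± 0.16 for Sv2b. The synapsins, which tether the reserve pool of vesicles, ranged from -0.74 ± 0.078 for Syn1 through -0.50 ± 0.092 for Syn2 to -0.43 ± 0.17 for Syn3, the last with overlapping groups.

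The 5 active zone and priming genes fell in the core without WT core replicate 3, and all 5 had non-overlapping groups. Rims1, the RIM scaffold that recruits calcium channels, had 142, 120.1 and 97.8 CPM in KO core and 249, 204 and 1.94 CPM in WT core, against 263, 334 and 321 CPM in KO contralateral and 313, 353 and 454 CPM in WT contralateral libraries. Unc13a, the Munc13 priming factor, had 143, 111 and 108 CPM in KO core and 222, 245 and 9.46 CPM in WT core, against 259.9, 299 and 252 CPM in KO contralateral and 277, 342 and 392 CPM in WT contralateral libraries. Pclo, piccolo, had 137, 114 and 141 CPM in KO core and 179.7, 209 and 2.59 CPM in WT core, against 236, 266 and 252 CPM in KO contralateral and 283, 345 and 391 CPM in WT contralateral libraries. For all 5 genes the KO core libraries lay below WT core replicates 1 and 2 as well. The log2 fold changes without WT core replicate 3 were -1.04 ± 0.14 for Rims1, -0.85 ± 0.11 for Unc13a, -0.88 ± 0.11 for Pclo, -0.84 ± 0.13 for the scaffold gene Bsn (bassoon) and -0.75 ± 0.055 for Rab3a, the vesicle GTPase. Of the adhesion genes, Nrxn3, a neurexin, fell in both fits, with log2 fold changes of -1.25 ± 0.46 with all libraries (adjusted p = 0.037) and -0.97 ± 0.069 without WT core replicate 3. Nlgn1, a neuroligin of excitatory synapses, changed by -0.61 ± 0.079 without that library.

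On the postsynaptic side all 7 genes were called lower in the core without WT core replicate 3, with a median of -0.58, and 5 of the 7 had overlapping groups. Homer1, the scaffold that links metabotropic glutamate receptors to Shank, fell in both fits. It had 132, 117 and 74.2 CPM in KO core and 194, 159.8 and 18.7 CPM in WT core, against 201, 272 and 237 CPM in KO contralateral and 233, 342 and 364 CPM in WT contralateral libraries. The log2 fold change was -1.23 ± 0.38 with all libraries (adjusted p = 0.016) and -0.98 ± 0.16 without WT core replicate 3. Camk2a had 1962, 1522 and 1376 CPM in KO core and 2795, 2774 and 10.5 CPM in WT core, against 2976, 3211 and 2943 CPM in KO contralateral and 2416, 3149.6 and 3248 CPM in WT contralateral libraries. WT core replicates 1 and 2 lay inside the contralateral range of Camk2a, and the KO core libraries lay below it. Shank3, a master scaffold of the postsynaptic density, had 91.6, 89.8 and 88.8 CPM in KO core and 156, 153 and 6.29 CPM in WT core, against 169, 173 and 167 CPM in KO contralateral and 126, 172 and 169.6 CPM in WT contralateral libraries. The same held there: WT core replicates 1 and 2 lay inside the contralateral range and the KO core libraries below it. The changes averaged over both genotypes, without WT core replicate 3, were -0.50 ± 0.11 for Camk2a, -0.47 ± 0.093 for Shank3, -0.66 ± 0.11 for Shank1, -0.64 ± 0.12 for Shank2, -0.55 ± 0.088 for Dlg4 (PSD-95) and -0.58 ± 0.10 for Dlgap1 (SAPAP).

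Of the 2 neuronal pentraxins, which gather AMPA-type glutamate receptors at synapses, 1 was called lower in the core without WT core replicate 3. Nptx2, whose expression is known to follow neuronal activity, had 12.7, 17.5 and 12.3 CPM in KO core and 31.3, 23.2 and 0.519 CPM in WT core, against 37.6, 35.8 and 34.6 CPM in KO contralateral and 36.8, 45.2 and 35.2 CPM in WT contralateral libraries. No core library reached the contralateral range, and the log2 fold change was -1.22 ± 0.50 with all libraries (adjusted p = 0.053) and -0.94 ± 0.14 without WT core replicate 3 (adjusted p = 3.4e-05). Nptx1 had 341, 211 and 322 CPM in KO core and 279.8, 542 and 3.76 CPM in WT core, against 325, 469.6 and 392 CPM in KO contralateral and 359, 530.0 and 445 CPM in WT contralateral libraries. Its groups overlapped, WT core replicate 2 was the highest of all these libraries, and its value of -0.29 ± 0.20 without WT core replicate 3 did not pass the test (adjusted p = 0.23).

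**Figure D2:**
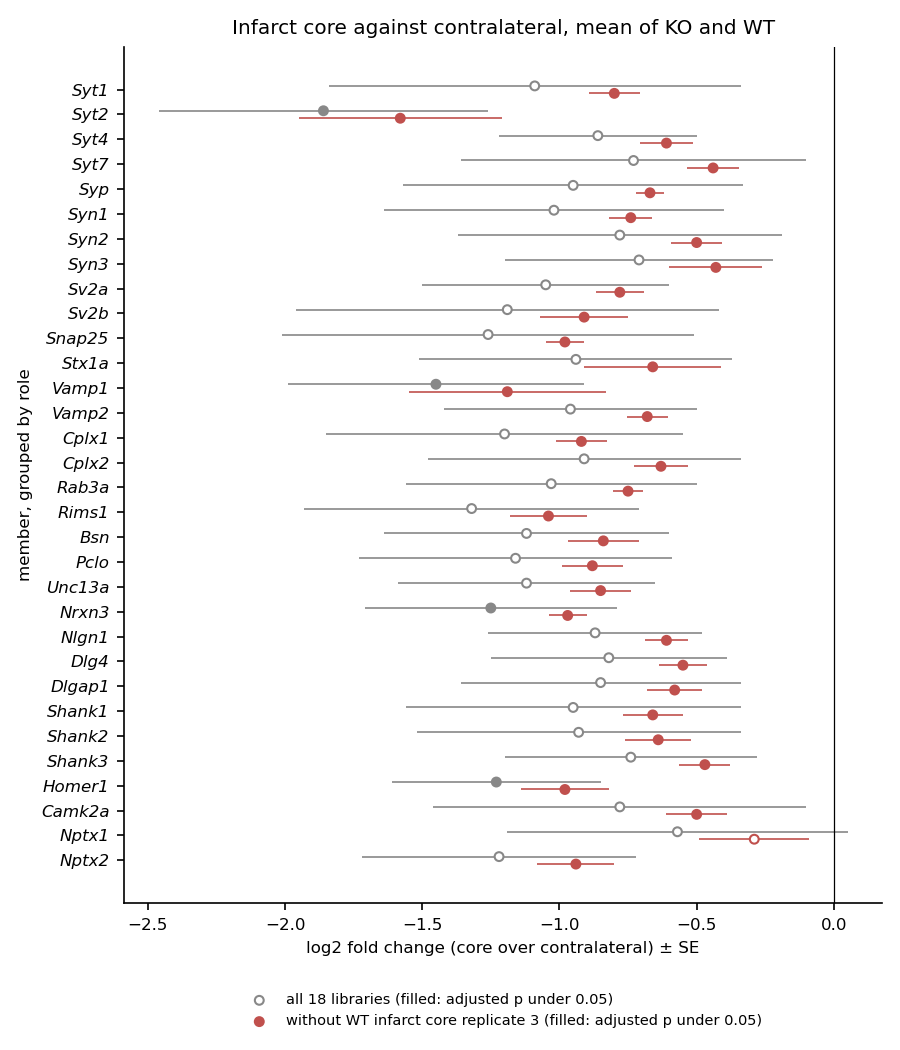
Points are log2 fold changes of infarct core over contralateral tissue, averaged over KO and WT, with SE as bars, for all 18 libraries (grey) and without WT core replicate 3 (red), and filled points passed an edgeR adjusted p of 0.05. All 32 points lie left of 0 in both fits, 4 are filled in grey and 31 in red, and the red bars are shorter.

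Peri-infarct tissue held intermediate levels. The 32 genes took 1.45% to 1.69% of counts there, against 1.81% to 2.09% in contralateral libraries, and these ranges did not meet. With all libraries DESeq2 called 0 of 32 and limma-voom with quality weights 7, and their shares of all genes are not given here. In edgeR 0 of 32 were called and 0 had an unadjusted p under 0.05, where 0.281% of all genes tested were called lower. Without WT core replicate 3, which belongs to neither group but enters the estimate of spread that all groups share, 22 of 32 were called lower and 0 higher, where 17.1% of all genes were called lower, and the median was -0.33 (-0.28 with all libraries). Every peri-infarct library lay below every contralateral library for 6 of 32 genes, Syt4, Syp, Snap25, Rab3a, Nrxn3 and Nptx2, against 2.92% of all genes. Snap25 had 1938, 1964 and 1881 CPM in KO peri-infarct and 2266, 2158 and 2466 CPM in WT peri-infarct libraries. Its log2 fold change was -0.46 ± 0.063 without WT core replicate 3. Nptx2, with the most negative value of the 32, had 17.6, 27 and 26.9 CPM in KO peri-infarct and 23.1, 30.5 and 25.6 CPM in WT peri-infarct libraries. Its log2 fold change was -0.58 ± 0.49 with all libraries (adjusted p = 0.6) and -0.63 ± 0.13 without WT core replicate 3 (adjusted p = 0.0014). Both genes were lower in all 6 peri-infarct libraries than in the contralateral libraries given above. Homer1 had 160.2, 172 and 158 CPM in KO peri-infarct and 179, 263 and 257 CPM in WT peri-infarct libraries, with the 3 KO libraries below all contralateral ones and the WT libraries partly within their range. Stx1a had 132, 185 and 177 CPM in KO peri-infarct and 122, 207 and 257 CPM in WT peri-infarct libraries, which overlapped the contralateral range, and its value of -0.48 ± 0.23 did not pass the test. At the other end, Nptx1 had 446, 523 and 319 CPM in KO peri-infarct and 461, 533 and 334 CPM in WT peri-infarct libraries, with a value of 0.055 ± 0.62 with all libraries and -0.00083 ± 0.19 without WT core replicate 3. Shank3 had 174, 190.1 and 147 CPM in KO peri-infarct and 139.5, 186 and 144 CPM in WT peri-infarct libraries, with a value of 0.0077 ± 0.46 with all libraries and -0.046 ± 0.087 without that one. The sign of both turned, and all 32 values were negative without it. Both overlapped the contralateral libraries and were not called in either fit.

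**Figure D3:**
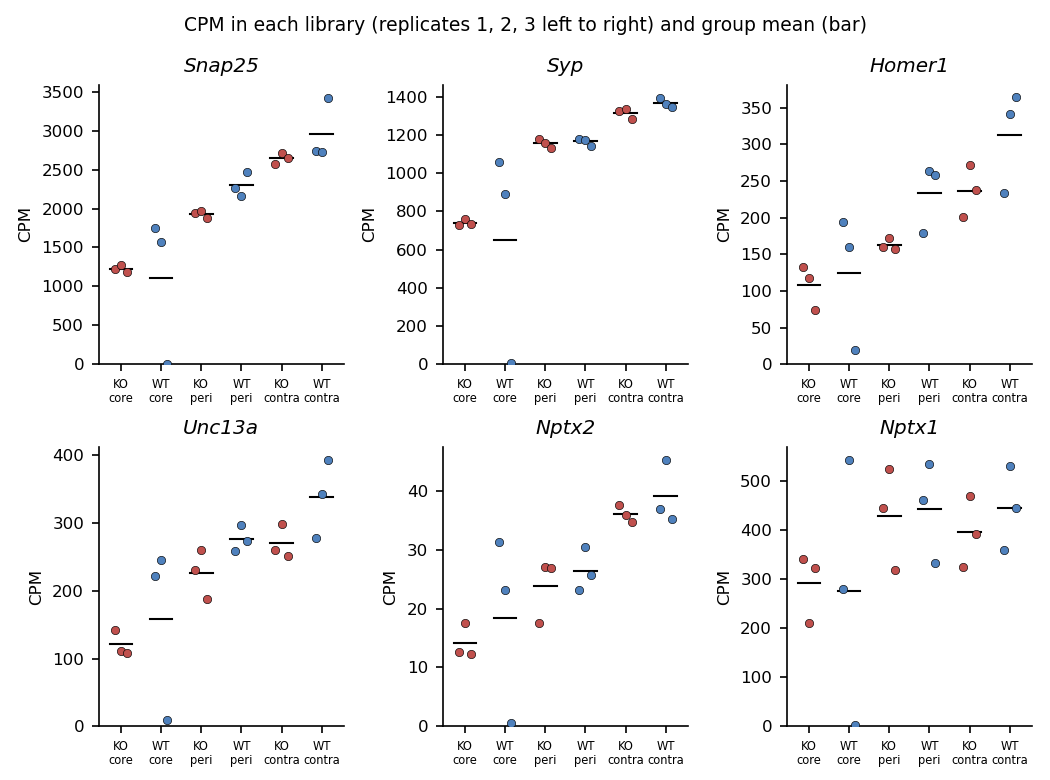
Each point is the CPM of 1 gene in 1 library and each bar the mean of a group of 3, with KO in red and WT in blue, core left of peri-infarct left of contralateral tissue. Snap25 and Syp step down in every peri-infarct library and further in every core library, while the core and peri-infarct points of Nptx2 overlap. Homer1 and Unc13a overlap between peri-infarct and contralateral tissue, and Nptx1 overlaps between all regions, with WT core replicate 3 at 3.76 CPM.

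Between the 2 lesion zones, averaged over KO and WT, the core was lower than peri-infarct tissue for all 32 genes in sign. The step was not alike in KO and WT for every gene, and this was not tested. Shank1 had means of 159 CPM in KO core and 249 CPM in KO peri-infarct libraries. In WT they were 263 CPM in core without replicate 3 and 261 CPM in peri-infarct tissue. In the same order the means were 1620, 2547, 2785 and 2786 CPM for Camk2a, and 1229, 1928, 1664 and 2297 CPM for Snap25. With all libraries DESeq2 called 1 of 32 and limma-voom with quality weights 23, and their shares of all genes are not given here. In edgeR 0 of 32 were called (2 with an unadjusted p under 0.05), where 5.06% of all genes were called lower. Without WT core replicate 3 the count was 22 lower and 0 higher, where 14.5% of all genes were called lower, and the median was -0.4. In 6 genes, Syp, Sv2a, Snap25, Cplx1, Rab3a and Nrxn3, each of the other 5 core libraries lay below each of the 6 peri-infarct libraries, against 4.67% of all genes. Cplx1 had 516, 521 and 536 CPM in KO peri-infarct and 449, 474 and 529 CPM in WT peri-infarct libraries, all of them above the core values given before, and differed by -0.55 ± 0.092 between core and peri-infarct tissue. Sv2a had 397, 325 and 369 CPM in KO peri-infarct and 327, 347 and 318 CPM in WT peri-infarct libraries and differed by -0.50 ± 0.087. For 4 genes, Syp, Snap25, Rab3a and Nrxn3, neither step had overlapping libraries, WT core replicate 3 left aside. The share of all genes for which both steps held is not given here.

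Related genes outside the list were counted in the same fits. Of 49 other presynaptic genes, 40 were called lower and 2 higher in the core without WT core replicate 3, with a median of -0.67, and 27 lower and 2 higher in peri-infarct tissue. Of 45 other postsynaptic and adhesion genes 41 were called lower and 1 higher in the core, with a median of -0.55, and 24 lower and 1 higher in peri-infarct tissue. Of 20 neuronal genes outside the synapse, such as neurofilament and neuronal tubulin genes, all 20 were called lower in the core, with a median of -0.74 beside -0.71 for the 32, and 15 in peri-infarct tissue, with a median of -0.29 beside -0.33. The difference between these medians was not tested. With all libraries the core counts were 11 lower and 2 higher of 49, 10 lower and 1 higher of 45, and 4 lower of 20, where 20.8% of all genes were called lower. In peri-infarct tissue the only called gene of these lists was then Homer3, which was higher, where 0.281% of all genes were called lower. Without WT core replicate 3 the shares of all genes called lower were 31.3% in the core and 17.1% in peri-infarct tissue. Among these genes 3 rose. Rab3d, a Rab of secretory cells, rose by 0.78 ± 0.094 in the core and 0.40 ± 0.09 in peri-infarct tissue, and Ppfia4, a liprin, by 0.35 ± 0.085 and 0.22 ± 0.081. Homer3, a Homer protein, rose by 1.07 ± 0.24 and 0.89 ± 0.23. Among those that fell were Syt6 (-1.22 ± 0.20) and Unc13c (-1.15 ± 0.44) among presynaptic genes, and Cbln4 (-1.43 ± 0.15) and Cbln2 (-0.91 ± 0.18), secreted cerebellins that bind neurexins. Of the microglia and macrophage markers, 16 of 16 were called higher in the core without WT core replicate 3, where 31.8% of all genes were called higher. Their summed level was 6787 to 10463 CPM in KO core and 8272 to 9656 CPM in WT core replicates 1 and 2 (33231 in replicate 3), against 887 to 1153 CPM in KO contralateral and 1163 to 1565 CPM in WT contralateral libraries. All 10 fibroblast markers were called higher too. They summed to 2686 to 4922 CPM in KO core and 2418 to 2776 CPM in WT core replicates 1 and 2 (8823 in replicate 3), against 130.3 to 187 CPM in KO contralateral and 167 to 238 CPM in WT contralateral libraries. CPM are shares of a library, and the part of these cells in the fall of the synaptic genes was not tested.

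Vamp1 and Syt2 had the most negative log2 fold changes in the core, and the widest spread among contralateral libraries, of the 32. Vamp1 is the vesicle SNARE, and Syt2 the calcium sensor, of many fast synapses of brainstem, spinal cord and parvalbumin interneurons. Vamp1 had 55.6, 105 and 181 CPM in KO core, 66.8, 73.2 and 3.76 CPM in WT core, 227, 98 and 188 CPM in KO peri-infarct and 269, 103 and 129.6 CPM in WT peri-infarct libraries. It had 201, 158 and 205 CPM in KO contralateral and 328, 126 and 198 CPM in WT contralateral libraries. Syt2 had 17.6, 37 and 68.2 CPM in KO core, 24.7, 17.7 and 0.259 CPM in WT core, 94.6, 41.7 and 78.6 CPM in KO peri-infarct libraries, and 44.9 and 55.5 CPM in WT peri-infarct replicates 2 and 3, below replicate 1. It had 76.2, 66.6 and 87.6 CPM in KO contralateral and 142, 55.3 and 105 CPM in WT contralateral libraries. They had the 2 most negative core values of the 32, -1.86 ± 0.60 for Syt2 (adjusted p = 0.019) and -1.45 ± 0.54 for Vamp1 (adjusted p = 0.035), and -1.58 ± 0.37 and -1.19 ± 0.36 without WT core replicate 3. KO core replicate 3 lay inside the contralateral range of both. They were also the most variable among the 6 contralateral libraries, with coefficients of variation of 35.3% for Syt2 and 33.9% for Vamp1, against 2.81% to 23.7% for the other 30. Slc17a6, the vesicular glutamate transporter of thalamus and brainstem, was set beside them after its values were seen. It had 18.2, 50.9 and 81.3 CPM in KO core, 22, 4.65 and 0 CPM in WT core, 91.6, 17.3 and 93.9 CPM in KO peri-infarct and 88.2, 20.6 and 29.6 CPM in WT peri-infarct libraries, and 84.8, 29.7 and 73.8 CPM in KO contralateral and 145, 23.2 and 24.8 CPM in WT contralateral libraries. In 6 of 6 groups the library lowest in Slc17a6 was also the lowest in Vamp1 and in Syt2 (in WT core that library was replicate 3, the lowest in all of these genes), and the same held for Sv2a in 5 of 6 groups. The library lowest in the interneuron gene Pvalb was the lowest in Vamp1 and in Syt2 in 5 of 6 groups, and so was the library lowest in the thalamic marker Tcf7l2. The cortical transporter Slc17a7 had 593, 521 and 428 CPM in KO core, 993, 878 and 0.907 CPM in WT core, 815, 1081 and 806 CPM in KO peri-infarct and 760.4, 1086 and 1015 CPM in WT peri-infarct libraries. It had 878, 1139 and 939 CPM in KO contralateral and 893, 1136 and 1279 CPM in WT contralateral libraries. Its lowest library was shared in 6 of 6 groups by Homer1, Rims1, Sv2b and Dlgap1, the members with the most matches, and in 1 of 6 by Vamp1 and Syt2. WT core replicate 3 was the lowest of its group in Slc17a7, as in Slc17a6 and Pvalb, and in all 32 members. With these 3 genes 1 of 6 groups therefore matched in advance, and for Vamp1 and Syt2 it was the only match with Slc17a7. These counts describe values that share libraries, and no test was made of them. The 10 thalamic markers summed to 222 to 346 CPM in KO core, 210.0 to 212 CPM in WT core replicates 1 and 2 and 303 CPM in WT core replicate 3, 196 to 529.8 CPM in KO peri-infarct and 188 to 344 CPM in WT peri-infarct libraries. They summed to 214 to 304 CPM in KO contralateral and 186 to 407 CPM in WT contralateral libraries, with at most 2 of them at 0 in a library. The sum is not read as an amount of thalamic tissue, since it joins genes that went opposite ways in the core without WT core replicate 3. Of these genes, Prkcd was called higher, at 2.11 ± 0.20, and Six3 and Rora lower, at -3.64 ± 0.72 and -0.56 ± 0.14. Their part in the spread of Vamp1 and Syt2 was not tested.

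**Figure D4:**
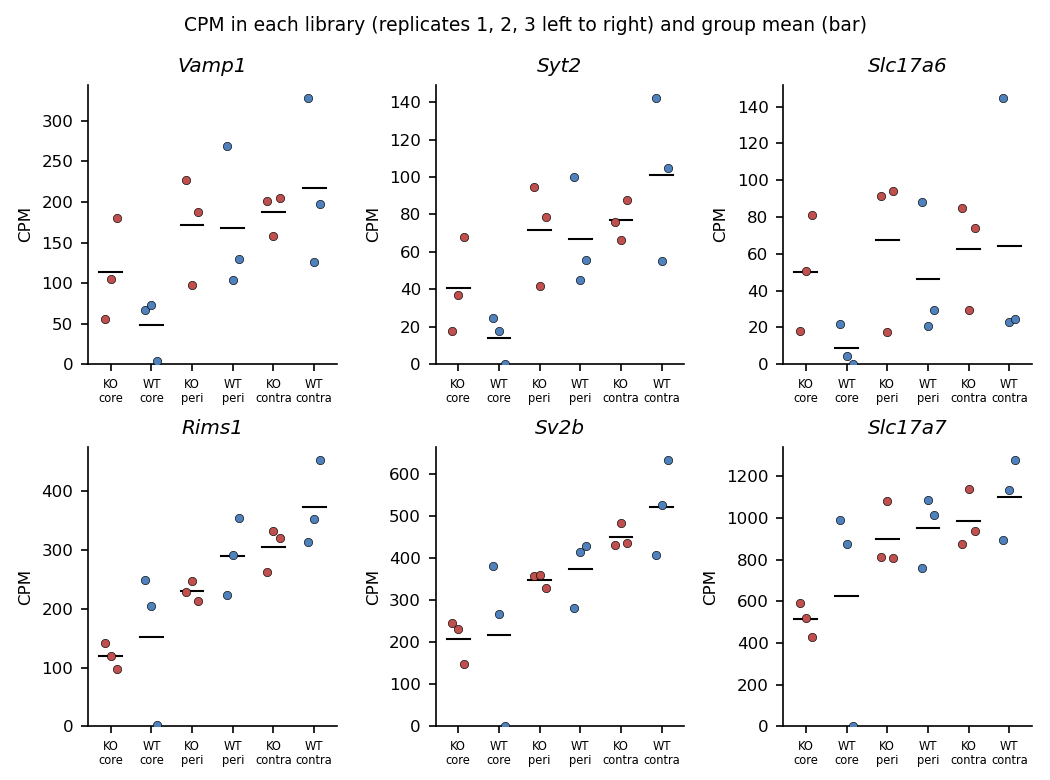
Each point is the CPM of 1 gene in 1 library and each bar the mean of a group of 3, with replicates 1, 2 and 3 from left to right, KO in red and WT in blue. Vamp1 and Syt2 (top left and centre) have their lowest library in common with Slc17a6 (top right) in 6 of 6 groups, and Rims1 and Sv2b (bottom left and centre) with Slc17a7 (bottom right) in 6 of 6 groups. WT core replicate 3 was the lowest of its group for all of these genes, which fixed 1 of the 6 matches.

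The upstream sequences of Vamp1 and Syt2 are shown because these genes had the most negative log2 fold changes in the core. Those of Syn1 and Nlgn1 are shown because they are the only 2 of the 22 members with a window to hold the letters searched for the RE1 element. That element is the site of the repressor REST that keeps neuronal genes off in other cells. Windows are the 250 bases before each RefSeq start in build GRCm38.p6, which differs from the build of the expression data, written 5′ to 3′ on the gene's strand. 22 of the 32 genes were matched by symbol, and 4 motifs were searched on both strands and are in capitals. They were TTCAGCACC, part of the RE1 element, then the cAMP response element TGACGTCA, the GC box GGGCGG and the CCAAT box CCAAT. None of the marked matches overlap each other.
Syn1, chrX:20920919-20921168, minus strand: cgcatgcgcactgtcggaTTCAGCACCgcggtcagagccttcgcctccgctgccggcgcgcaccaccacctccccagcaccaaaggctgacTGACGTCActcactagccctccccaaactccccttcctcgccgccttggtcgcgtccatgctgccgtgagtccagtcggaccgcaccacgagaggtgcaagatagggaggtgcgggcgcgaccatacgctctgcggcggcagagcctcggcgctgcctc
Nlgn1, chr3:26153987-26154236, minus strand: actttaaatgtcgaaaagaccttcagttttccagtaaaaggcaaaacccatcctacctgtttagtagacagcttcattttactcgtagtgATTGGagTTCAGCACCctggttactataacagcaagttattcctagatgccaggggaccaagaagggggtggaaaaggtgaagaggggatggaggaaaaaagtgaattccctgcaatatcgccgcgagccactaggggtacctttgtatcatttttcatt
Vamp1, chr6:125215331-125215580, plus strand: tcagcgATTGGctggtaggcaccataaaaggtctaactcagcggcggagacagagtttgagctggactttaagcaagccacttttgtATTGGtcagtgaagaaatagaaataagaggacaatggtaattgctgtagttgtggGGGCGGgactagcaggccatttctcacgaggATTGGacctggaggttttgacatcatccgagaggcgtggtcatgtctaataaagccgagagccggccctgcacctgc
Syt2, first start, chr1:134646362-134646611, plus strand: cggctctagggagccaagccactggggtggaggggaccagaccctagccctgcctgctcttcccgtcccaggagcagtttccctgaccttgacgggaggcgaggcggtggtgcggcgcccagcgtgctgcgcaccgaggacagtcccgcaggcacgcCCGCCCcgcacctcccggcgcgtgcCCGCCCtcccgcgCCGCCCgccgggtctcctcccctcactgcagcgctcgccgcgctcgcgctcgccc
Syt2, second start, chr1:134709050-134709299, plus strand: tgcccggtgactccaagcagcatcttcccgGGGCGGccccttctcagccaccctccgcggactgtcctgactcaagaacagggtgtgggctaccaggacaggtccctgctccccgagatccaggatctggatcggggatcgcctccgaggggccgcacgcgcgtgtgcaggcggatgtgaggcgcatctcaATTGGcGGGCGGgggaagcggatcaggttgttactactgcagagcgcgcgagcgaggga
Syn1 holds the RE1 letters from 232 bases and a cAMP response element from 159 bases before the start. Nlgn1 holds the RE1 letters from 153 bases before its start, next to a CCAAT box on the other strand. Vamp1 holds 1 GC box and 3 CCAAT boxes, and the 2 windows of Syt2 hold 3 GC boxes, and 2 GC boxes with 1 CCAAT box. Of all 32851 windows 0.301% hold the RE1 letters, 1.55% the cAMP response element, 32.7% the GC box and 33.8% the CCAAT box, and among the 36 windows of the 22 genes the counts were 2, 1, 15 and 6 in that order. A match is a run of letters, not a measured site.

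Within-library ratios of paralogues were compared between regions, which sets 2 synaptic genes against each other inside the same library. For 5 pairs and 2 lesion regions this gave 10 exact 2-sided permutation tests with region labels permuted within genotype. The smallest p was that of Nptx2 over Nptx1, whose log2 ratio was -4.08 ± 0.4 in peri-infarct libraries, against -3.45 ± 0.23 in contralateral libraries (SD, n = 6 each), a difference of -0.63 (exact permutation p = 0.02, 0.2 after Benjamini-Hochberg adjustment over 10). The ratio was between -4.62 and -3.54 in peri-infarct libraries, against -3.69 to -3.1 in contralateral ones, so that 4 of 6 peri-infarct libraries lay below all contralateral ones. In the core it was -4.11 ± 0.72 without WT core replicate 3 (SD, n = 5), a difference of -0.66 (exact permutation p = 0.095, adjusted 0.45). For Syt2 over Syt1, Vamp1 over Vamp2, Cplx1 over Cplx2 and Sv2b over Sv2a the core differences without that library were -0.69, -0.43, -0.26 and -0.18, with exact permutation p-values of 0.18, 0.32, 0.18 and 0.535, and the peri-infarct differences were -0.025, -0.032, -0.12 and -0.19. With that library the 5 core differences were -0.068 for Syt2 over Syt1, -0.44 for Vamp1 over Vamp2, -0.47 for Cplx1 over Cplx2, -0.9 for Sv2b over Sv2a and -0.32 for Nptx2 over Nptx1. None of the 10 tests passed the adjustment, with or without WT core replicate 3.

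Trem2 genotype was compared within each region. In the infarct core with all libraries DESeq2 called 0 of 32 and limma-voom with quality weights 2, and their shares of all genes are not given here. In edgeR 0 of 32 were called and 0 had an unadjusted p under 0.05, where 0.00652% of all genes were called lower. The edgeR median was 0.05. WT core replicate 3, with the low values given at the start, enters the WT mean there. Without it, with WT at n = 2, 14 of 32 were called lower in KO core and 0 higher, where 2.06% of all genes were called lower, and the median was -0.5, against 0.02 over all genes. The 14 included 6 of the 7 postsynaptic genes, 3 of the 5 active zone genes, 2 of the 6 vesicle proteins, 1 of the 6 SNARE and complexin genes, 1 of the 4 synaptotagmins and Nptx2. In 24 of 32 genes all 3 KO core libraries lay below WT core replicates 1 and 2, against 18.6% of all genes. With all libraries that held for 0 of 32 genes, against 5.12% of all genes. The 0 was fixed in advance, since WT core replicate 3 was the lowest core library in each of the 32.

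The largest falls were in the active zone, the postsynaptic density and Nptx2. Unc13a, with the core values given above, changed by -0.93 ± 0.15 between KO and WT core (adjusted p = 0.014), Rims1 by -0.90 ± 0.20 (adjusted p = 0.031) and Bsn by -0.84 ± 0.19 (adjusted p = 0.036). Nptx2 changed by -0.93 ± 0.20 (adjusted p = 0.03). On the postsynaptic side Shank2 changed by -0.79 ± 0.18, Camk2a by -0.76 ± 0.16, Shank3 by -0.76 ± 0.14, Shank1 by -0.71 ± 0.15, Dlgap1 by -0.58 ± 0.15 and Dlg4 by -0.52 ± 0.13, each past the threshold, while Homer1, at -0.69 ± 0.24, was not (adjusted p = 0.13). Syn1 changed by -0.60 ± 0.11, Syt1 by -0.55 ± 0.13, Snap25 by -0.42 ± 0.10 and Syp by -0.38 ± 0.075. With all libraries the contrast gave 0.015 ± 1.05 for Syt1, 0.15 ± 1.04 for Snap25, 0.18 ± 0.87 for Syp and 0.0099 ± 0.61 for Dlg4, with signs turned and SEs above 0.6. Vamp1 and Syt2 had positive values in both fits, with 0.97 ± 0.56 for Syt2 and 0.72 ± 0.54 for Vamp1 without that library, and neither passed the test. Syt4, at -0.029 ± 0.14, and Sv2a, at -0.10 ± 0.13, had the smallest values.

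This difference in the core rests on few libraries. Leaving out 1 further core library besides WT core replicate 3 gave 0 called members without KO core replicate 2, 0 without WT core replicate 1, 4 without KO core replicate 3, 5 without WT core replicate 2 and 9 without KO core replicate 1. Outside the list, Slc17a7 changed by -0.85 ± 0.19 (adjusted p = 0.034) and the calcium-binding presynaptic protein gene Rph3a by -0.72 ± 0.13. In all, 7 of 49 other presynaptic genes and 11 of 45 other postsynaptic and adhesion genes were called lower, and so were 5 of 20 neuronal genes outside the synapse, with a median of -0.29. With all libraries 0 genes of these 3 lists were called (2 presynaptic genes had an unadjusted p under 0.05). The 20 neuronal genes summed to 5370.3 to 6230 CPM in KO core libraries, against 6993 to 7185 CPM in WT core replicates 1 and 2. Among the 14 excitatory cortical neuron markers only Neurod6 was called, and it was lower, at -1.22 ± 0.30 (edgeR adjusted p = 0.044). The excitatory markers summed to 462.6 to 581.8 CPM in KO core libraries, against 699.6 to 754.0 CPM in WT core replicates 1 and 2, which did not overlap. Of 14 inhibitory neuron markers 1 was called lower, Npy at -1.22 ± 0.24, with a median of -0.11. These markers summed to 461.5 to 768 CPM in KO core libraries, against 553 to 635.5 CPM in WT core replicates 1 and 2, so that the groups overlapped. Of 7 oligodendrocyte precursor markers 1 was called lower, Cspg4 at -1.0 ± 0.2 (edgeR adjusted p 0.021). They summed to 369.8 to 391 CPM in KO core libraries, against 439 to 460.5 CPM in WT core replicates 1 and 2, which did not overlap. The share of all genes called higher in KO core is not given here. Of microglia and macrophage markers 0 of 16 were called (1 with an unadjusted p under 0.05), and of the 5 tested neutrophil markers 2 were called higher, Cxcr2 at 3.20 ± 0.50 and S100a8 at 2.18 ± 0.55. The part of these cells in the difference was not tested.

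**Figure D5:**
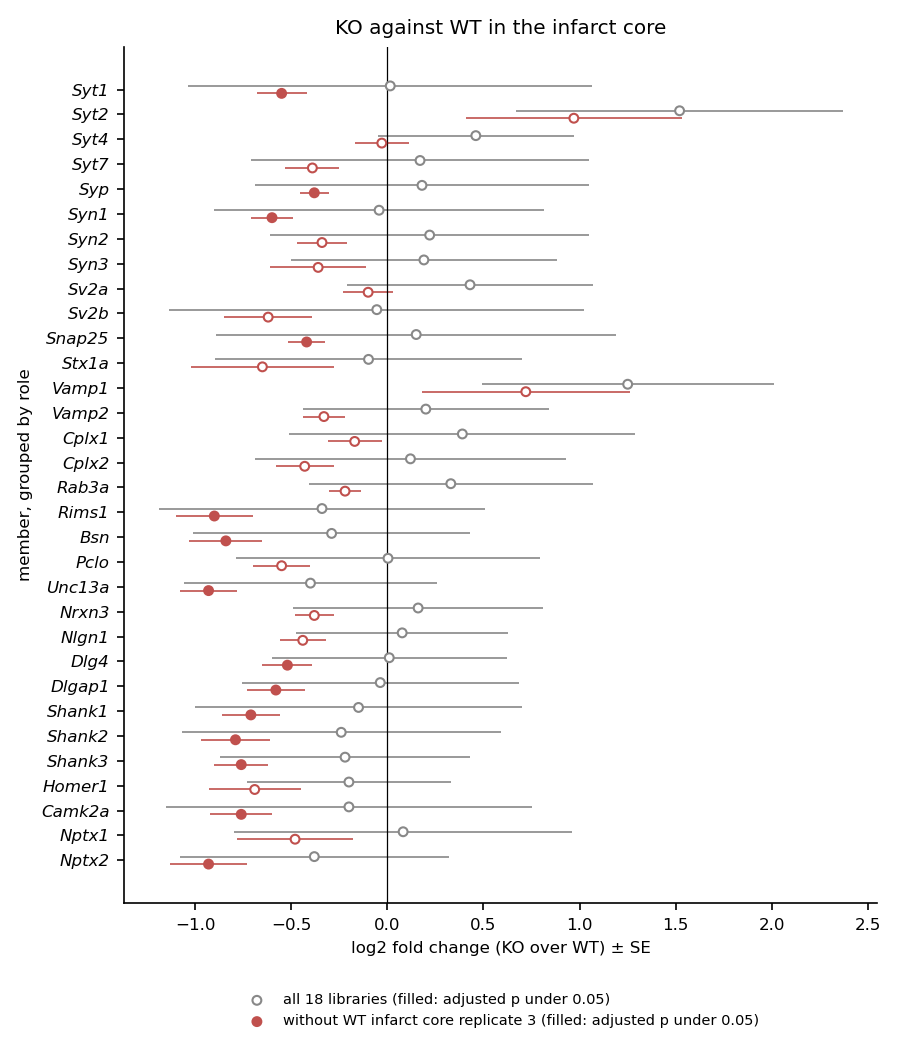
Points are log2 fold changes of KO over WT infarct core with SE as bars, for all 18 libraries (grey) and without WT core replicate 3 (red), and filled points passed an edgeR adjusted p of 0.05. Grey points scatter around 0 with none filled, whereas 30 red points lie left of 0 and 14 are filled, with Vamp1 and Syt2 on the right.

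The core was also set against contralateral tissue within each genotype. With all libraries edgeR called 0 of 32 lower in KO (0 at an unadjusted p under 0.05, with 3.31% of all genes called lower) and 2 of 32 lower in WT, Syt2 and Vamp1 (11.5% of all genes). Without WT core replicate 3, 29 of 32 were called lower in KO core than in KO contralateral tissue, where 27.8% of all genes were called lower, with a median of -0.92. In WT core 19 of 32 were called lower than in WT contralateral tissue, where 16.6% of all genes were called lower, with a median of -0.51. The test of the difference between these responses called 0 of 32 members, and 0 of all genes, in both edgeR fits, and 0 members in DESeq2 and limma-voom. Members with an unadjusted p under 0.05 numbered 0 with all libraries and 16 without WT core replicate 3. The share of all genes at that threshold is not given here, so the 16 are not read as a trait of the members. The smallest adjusted p of this core difference among members without that library was 0.36, shared by several of them, among which were Shank3 with a difference of -0.90 ± 0.18 and Camk2a with -0.84 ± 0.22. For peri-infarct against contralateral tissue the same test called 0 of 32, with 0 members at an unadjusted p under 0.05 in both fits. A genotype difference that arises with the lesion is therefore not shown for these genes.

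Outside the core no member was called between genotypes. In peri-infarct tissue 0 of 32 were called between KO and WT in either edgeR fit, and 0 by DESeq2 or limma-voom, with 0 and 3 at an unadjusted p under 0.05 with and without WT core replicate 3, where 0.00652% and 0.0778% of all genes were called lower. In contralateral tissue 0 of 32 were called in either edgeR fit, and 0 by DESeq2 or limma-voom, with 0 and 2 at an unadjusted p under 0.05, where 0.00652% and 0.0259% of all genes were called lower. Medians without that library were -0.07 in peri-infarct and -0.1 in contralateral tissue. Homer1, with the peri-infarct values given above, was lower in all 3 KO than in all 3 WT peri-infarct libraries, at -0.53 ± 0.22 (adjusted p = 0.31), and so was Snap25, at -0.27 ± 0.089 (adjusted p = 0.23). These were the 2 of 32 for which that held, against 9.27% of all genes. Rab3a, with 322, 347 and 333 CPM in KO peri-infarct and 308, 318 and 303 CPM in WT peri-infarct libraries, was the 1 of 32 that was higher in all 3 KO libraries, against 8.02% of all genes. Pclo was lower in all 3 KO than in all 3 WT contralateral libraries, at -0.41 ± 0.14 (adjusted p = 0.37), and so were Syt1, Syp and Snap25, which makes 4 of 32, against 10.5% of all genes. Vamp2, with the contralateral values given above, was higher in all 3 KO than in all 3 WT contralateral libraries, as 1 of 32, against 6.42% of all genes. These did not pass the test.

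Averaged over the 3 regions, with all libraries, DESeq2 called 0 of 32 between KO and WT and limma-voom with quality weights 5. Their shares of all genes are not given here. In edgeR 0 of 32 were called (0 with an unadjusted p under 0.05), where 0.137% of all genes were called lower. Without WT core replicate 3, 12 were called lower and 0 higher, where 5.2% of all genes were called lower, and this count stayed between 7 and 12 when 1 further core library was left out. The 12 were Homer1 (-0.53 ± 0.13), Unc13a (-0.51 ± 0.084), Rims1 (-0.50 ± 0.11), Bsn (-0.46 ± 0.10), Pclo (-0.39 ± 0.083), Nptx2 (-0.39 ± 0.11), Shank2 (-0.36 ± 0.10), Dlgap1 (-0.33 ± 0.08), Syt1 (-0.33 ± 0.072), Snap25 (-0.27 ± 0.053), Syn1 (-0.24 ± 0.061) and Syp (-0.15 ± 0.04). The region averages treat libraries of different regions as separate samples, and the labels do not say whether the regions share mice.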

How the data were processed

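Polyadenylated RNA of 18 brain tissue libraries was measured, and a table of expected counts and a table of TPM per gene were used as the authors deposited them. Per the submitters' processing notes, HISAT2 2.0.4, Bowtie2, Subread and build GRCm39 were used; the counting settings and the use of strand are not given in the sources used here. The deposited expected counts were fractional in 3678 of 18922 genes (19.4%) and were rounded, whereas the design had assumed raw counts. All genes were fitted with edgeR 4.0.16 in R 4.3.3 (TMM, filterByExpr, 6 group means, quasi-likelihood test), with Benjamini-Hochberg adjustment over the 15329 genes that passed the filter, or 15432 without WT infarct core replicate 3. A gene was called at an adjusted p under 0.05, and the SE is the log2 fold change over the root of F. CPM use TMM library sizes, and TPM, scaled to transcript length in the deposited table, serve to compare genes. Totals were 16993978 to 18713770 counts per library.

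The members and all gene lists were chosen with earlier results of these data known. By the naming rule, values in every library are given for the genes of the ratio pairs and, per comparison, the 3 members with the largest positive and the 3 with the largest negative log2 fold change, and up to 2 called genes per direction are named of each other list. Further members shown library by library, such as Snap25 and Syp, and Slc17a6, were chosen after their values were seen. DESeq2 1.42.0, limma 3.58.1, other scalings and left-out libraries were alternatives. No 2 replicates agreed within counting noise (lowest chi-square 9.48 per degree of freedom).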

Additional observations from a re-analysis of the deposited data

How the results depend on the processing

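The counts of called members depended on WT core replicate 3, and giving each result beside its value without that library, and joining that to other settings, was chosen after seeing the data. Core against contralateral tissue gave 4 called members with all libraries, 31 without that library, 7 with RLE scaling, 13 in DESeq2, 30 in limma-voom with quality weights, 21 on TPM and 0 when only the groups compared were fitted. Without that library it gave 30 with a replicate block, 31 on TPM and 31 with RLE scaling. Leaving out 1 library in turn gave 2 to 31, and a further library 30 to 31. Peri-infarct against contralateral tissue gave 0, and 22 without that library, 7 in limma-voom and 20 with only the groups compared, and without that library 21 with a replicate block, 22 on TPM and 21 with RLE (leave-one-out 0 to 22). Core against peri-infarct tissue gave 0, and 22 without that library, 1 in DESeq2, 23 in limma-voom and 1 on TPM, and without that library 19 with a replicate block, 29 on TPM and 24 with RLE (leave-one-out 0 to 22). KO against WT core gave 0, and 14 without that library, 2 in limma-voom, and without that library 6 with a replicate block, 14 on TPM and 14 with RLE (leave-one-out 0 to 14, a further library 0 to 9). The mean of 3 regions gave 0, and 12 without that library, 5 in limma-voom, and without that library 11 with a replicate block, 12 on TPM and 12 with RLE (leave-one-out 0 to 12, a further library 7 to 12). Without WT core replicate 3 the sign turned in KO against WT core for Syt1 (-0.55, -0.56 and -0.72 over the settings, 0.015 with all libraries), Syp (-0.36 to -0.5: -0.37, -0.38 and -0.39, against 0.18), Snap25 (-0.42 and -0.43, against 0.15) and Dlg4 (-0.52 and -0.65, against 0.0099). They were not the only members whose sign turned. Leaving out 1 library in turn gave -0.55 to 0.61 for Syt1, -0.38 to 0.71 for Syp, -0.42 to 0.63 for Snap25 and -0.52 to 0.43 for Dlg4. The cause was not tested. Replicate numbers were not taken as pairs: deviations of same-numbered libraries correlated at -0.277 to 0.436, with 7 of 18 pairs over 0.1, although WT peri-infarct and contralateral libraries gave 0.398, 0.436 and 0.386 (different numbers -0.343 to -0.0525). With all libraries the replicate block gave 3 called members in core against contralateral tissue and 0 in the other comparisons. Scaling to library totals moved the median of all genes in KO against WT core to 0.15 and TPM to 0.22, and on TPM the core against contralateral split of all genes was 3792 higher and 6490 lower, against 5049 and 3186. The Nptx2 over Nptx1 difference in peri-infarct tissue was -0.74 to -0.52 when 1 library was left out. Depth, at 16993978 counts or more, was similar in all libraries, and WT infarct core has only 2 libraries beside the one that stands apart.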

Other observations

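Contralateral libraries differed in genes of neighbouring structures. Ttr, the transthyretin gene of choroid plexus, had 2.65, 2108 and 28.8 CPM in KO contralateral and 2.49, 224 and 9.04 CPM in WT contralateral libraries. Drd2, a dopamine receptor gene of striatal neurons, had 33.5, 11.0 and 16.7 CPM in KO contralateral and 5.93, 13.4 and 9.81 CPM in WT contralateral libraries. Both were chosen after their values were seen. Over the same 6 libraries Syp ranged from 1282 to 1394 CPM.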
